A study of Mus musculus with 6 samples.

Results

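The collagen genes of the mouse are described here in the anterior prostate (AP) of mice with over-activated Notch1 signaling. Members were the rows of the expression tables whose symbol reads Col, a type number, the letter a and a chain number, with Col17a1 left out. This gave 43 genes out of 54532 named rows, namely 11 fibrillar, 8 basement membrane and 24 other collagens. RNA-seq was made from the whole AP of male mice at 20 weeks of age, with 3 OEx and 3 Ctrl mice. OEx mice carried Pbsn-Cre and 1 Rosa26 N1ICD allele, so that the Notch1 intracellular domain (N1ICD) was switched on where the probasin promoter drives Cre, in prostatic epithelium. Ctrl mice carried the same Rosa26 N1ICD allele without Cre, although their sample labels give the genotype as wild type. The comparison asks how the collagens that make up the prostate matrix differed when Notch1 signaling was forced on in the epithelium.

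Collagens are secreted proteins whose alpha chains wind around each other into a helix. Fibrillar collagens such as types I, III and V form the tensile fibers of connective tissue and are made mainly by fibroblasts and related stromal cells. Type IV collagen forms the sheet-like network of basement membranes under epithelium and around blood vessels and smooth muscle. The remaining types link, decorate or anchor these structures. In the prostate, epithelial glands sit on a basement membrane inside a fibromuscular stroma, so most collagen mRNA in a whole lobe is usually taken to come from cells other than the epithelial cells that carried the active Cre.

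Values are FPKM, fragments per kilobase of exon scaled between libraries, and the reads recovered behind them came to 14772005 to 17009325 per OEx mouse and 17236735 to 18655462 per Ctrl mouse. The read total implied by the deposited scaling was 1.22 to 1.34 times these reads in OEx and 0.726 to 0.815 times in Ctrl mice. An equal share of reads thus gives a lower FPKM in OEx mice. Notch1, whose values include reads of the transgene, measured 41.9, 47.6 and 78.9 FPKM in the OEx libraries and 5.18, 5.55 and 3.34 FPKM in the Ctrl libraries, always listed from replicate 1 to replicate 3 (limma log2 fold change 3.30, SE 0.268, FDR 9.9e-05). In both groups replicate 3 stood apart from replicates 1 and 2. The chi-square per gene between libraries, near 1 for sampling noise alone, was 3.96 and 3.07 between replicates 1 and 2 and 58.5 to 106 between replicate 3 and the others of its group. Seminal vesicle genes took 1.31% of the reads in Ctrl replicate 3 and at most 0.000325% in the other mice. The labels list each library as a sample of its own, and p-values measure only the spread between these samples. Whether replicates 1 and 2 of a group share RNA or a batch is not given in the sources used here, and if they do, the SEs are too small, most of all in fits without replicate 3. In bulk tissue, fewer cells of a type and less RNA per cell cannot be told apart.

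Across the collagens, 3 genes were lower in OEx mice, 1 was higher, and the fibrillar genes differed more among the OEx mice than between the groups. The basement membrane genes Col4a6 and Col18a1 and the transmembrane collagen Col23a1 fell, whereas Col8a1, a short-chain network collagen, rose. Of the 43 genes, 22 had a mean of at least 1 FPKM and were tested. A gene was called where its FDR from limma with Benjamini-Hochberg adjustment over all 12553 tested genes was under 0.05 and its log2 fold change, on the log2(FPKM + 1) scale, was beyond 1 in either direction. By this rule 12.8% of all tested genes were called higher and 15.5% lower. By FDR alone, which called 30.9% of all genes higher and 36.5% lower, Col20a1 joined the higher and Col7a1 the lower collagens. The same 2 higher and 4 lower collagens were those whose OEx and Ctrl values did not overlap, a property of 33.6% (higher) and 38.9% (lower) of all tested genes. The median log2 fold change was 0.28 over the tested collagens and -0.07 over all tested genes.

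The fibrillar collagens had higher means in OEx mice, but the difference lay in 2 of the 3 mice and was within the spread of the group. Type I and type III chains were the most abundant collagen mRNAs of OEx replicates 1 and 2, and OEx replicate 3 had the lowest value of the 6 mice for each of these chains. None of the 5 tested fibrillar genes was called by limma, and 0 of 5 had an unadjusted p under 0.05 in limma or in limma-voom on recovered reads. Their median log2 fold change was 1.29, and all 5 fitted values were above 0. Scaling to library totals or to the upper quartile moved the median of all genes from -0.07 to 0.75 or 0.17. Values above 0 under these scalings therefore add nothing. Relative to all genes the class median was 1.37 under the deposited scaling, 1.44 with library totals and 1.39 with the upper quartile.

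Col3a1 (GRCm38 chr1:45311538-45349706), the chain of type III collagen, reached 83.9, 84.1 and 3.67 FPKM in OEx and 8.21, 7.95 and 14.7 FPKM in Ctrl mice. OEx replicates 1 and 2 were thus above every Ctrl mouse and OEx replicate 3 was below every Ctrl mouse. The means were 57.2 ± 46.4 FPKM (SD, n = 3) in OEx and 10.3 ± 3.81 FPKM (SD, n = 3) for the Ctrl group, giving a log2 fold change of 1.57 (SE 1.11, limma FDR 0.246). Col1a1 (chr11:94936224-94953042), the major chain of type I collagen, was at 75.4, 83.7 and 6.04 FPKM in OEx and at 11.4, 11.5 and 18.9 FPKM in Ctrl mice. Col1a2 (chr6:4504814-4541544), the other type I chain, was at 34.3, 33.9 and 2.95 FPKM in OEx and at 6.72, 7.30 and 11.7 FPKM in Ctrl mice. For both type I chains OEx replicates 1 and 2 were again above, and OEx replicate 3 below, every Ctrl mouse. The log2 fold changes of 1.29 (SE 0.935, limma FDR 0.256) and 0.86 (SE 0.843, limma FDR 0.395) were within the spread. Together Col1a1, Col1a2 and Col3a1 made up 58.9% and 58.2% of the summed collagen FPKM of OEx replicates 1 and 2, but 17.8% of that of OEx replicate 3 and 17.1% to 23.3% in Ctrl mice.

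Type V collagen is incorporated into type I fibers and is known to set their diameter. Col5a2 (chr1:45374321-45503282) was at 10.1, 10.1 and 0.757 FPKM in OEx and at 1.0, 1.14 and 1.96 FPKM in Ctrl mice. Col5a1 (chr2:27886425-28039514) was at 8.00, 8.40 and 1.57 FPKM in OEx and at 1.53, 1.53 and 3.65 FPKM in Ctrl mice. In FPKM, Col5a2 repeated the split seen for Col3a1, while OEx replicate 3 lay within the Ctrl range for Col5a1. OEx replicate 3 had 131 reads of Col5a2 against 120 and 141 in Ctrl replicates 1 and 2, from a smaller read total. Its place below every Ctrl mouse for Col5a2 thus depends on the scaling. The log2 fold changes were 1.36 (SE 0.710, limma FDR 0.130) for Col5a2 and 0.96 (SE 0.538, limma FDR 0.156) for Col5a1. The exons of Col3a1 and Col5a1 overlap other annotated transcripts, and how the authors assigned shared reads is not given in the sources used here.

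**Figure D1:**
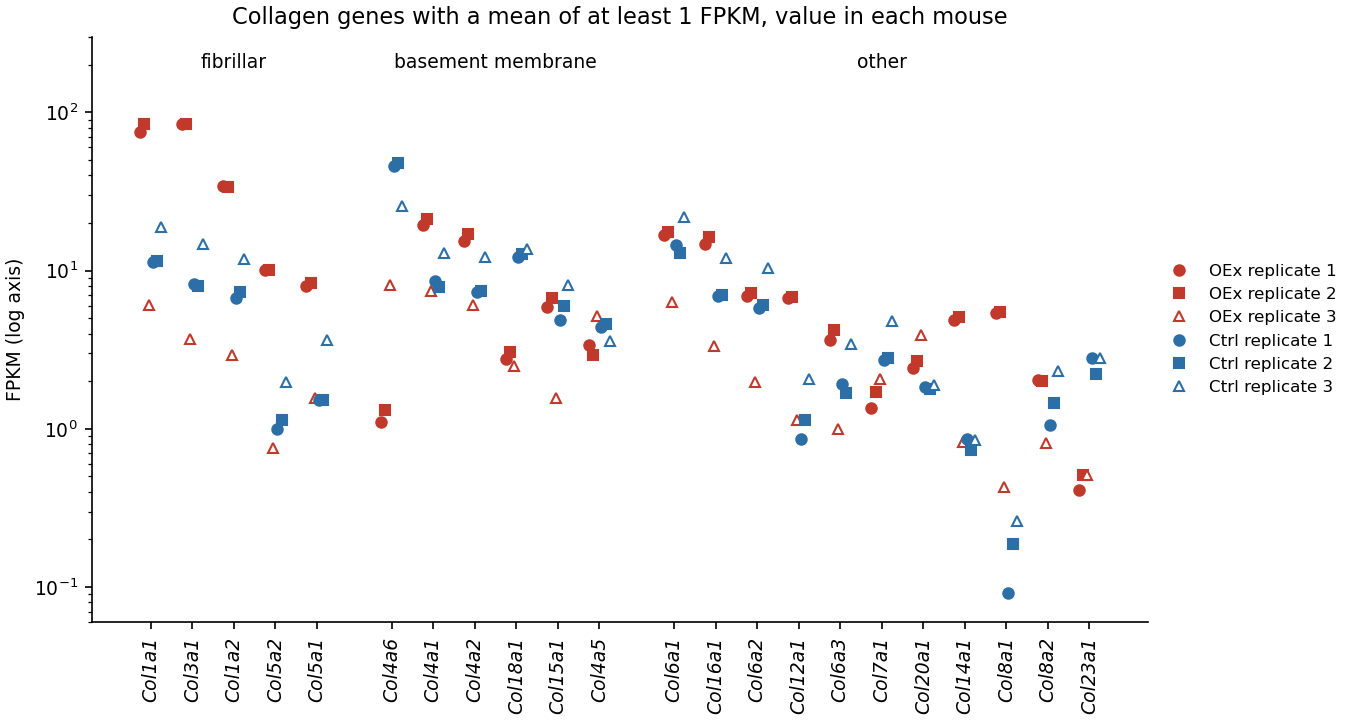
FPKM of the 22 tested collagen genes in each mouse, on a log axis, with genes on the horizontal axis grouped as fibrillar, basement membrane and other; red symbols are OEx and blue symbols Ctrl mice, and open triangles are replicate 3 of either group. For Col3a1, OEx replicates 1 and 2 lie at 83.9 and 84.1 FPKM and OEx replicate 3 at 3.67 FPKM, whereas all OEx values of Col18a1 lie below 3.1 FPKM and all Ctrl values above 12 FPKM.

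Without OEx replicate 3, which was 1 of 6 mice left out in turn, 9 collagens were called higher and 3 lower, beside 13.3% and 15.5% of all tested genes. The log2 fold changes of the fibrillar genes were then 2.96 for Col3a1 (SE 0.260, limma FDR 0.000378), 2.46 for Col1a1, 2.25 for Col5a2, 1.91 for Col1a2 and 1.57 for Col5a1 (limma FDR 0.00514, the highest of the 5). The other genes called higher were Col8a1, Col12a1, Col14a1 and Col4a1. The 3 lower genes were again Col4a6, Col18a1 and Col23a1, which were called in all 6 of the fits with 1 mouse left out. In each of the other 5 such fits no collagen was called higher by limma, with at most 1 at an unadjusted p under 0.05. Leaving out replicate 3 of both groups, a choice made after the data were seen, gave 11 higher collagens (14.1% of all genes were higher) and the same 3 lower ones (16.1% of all genes were lower), with Col4a2 and Col16a1 added to the higher ones.

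**Figure D2:**
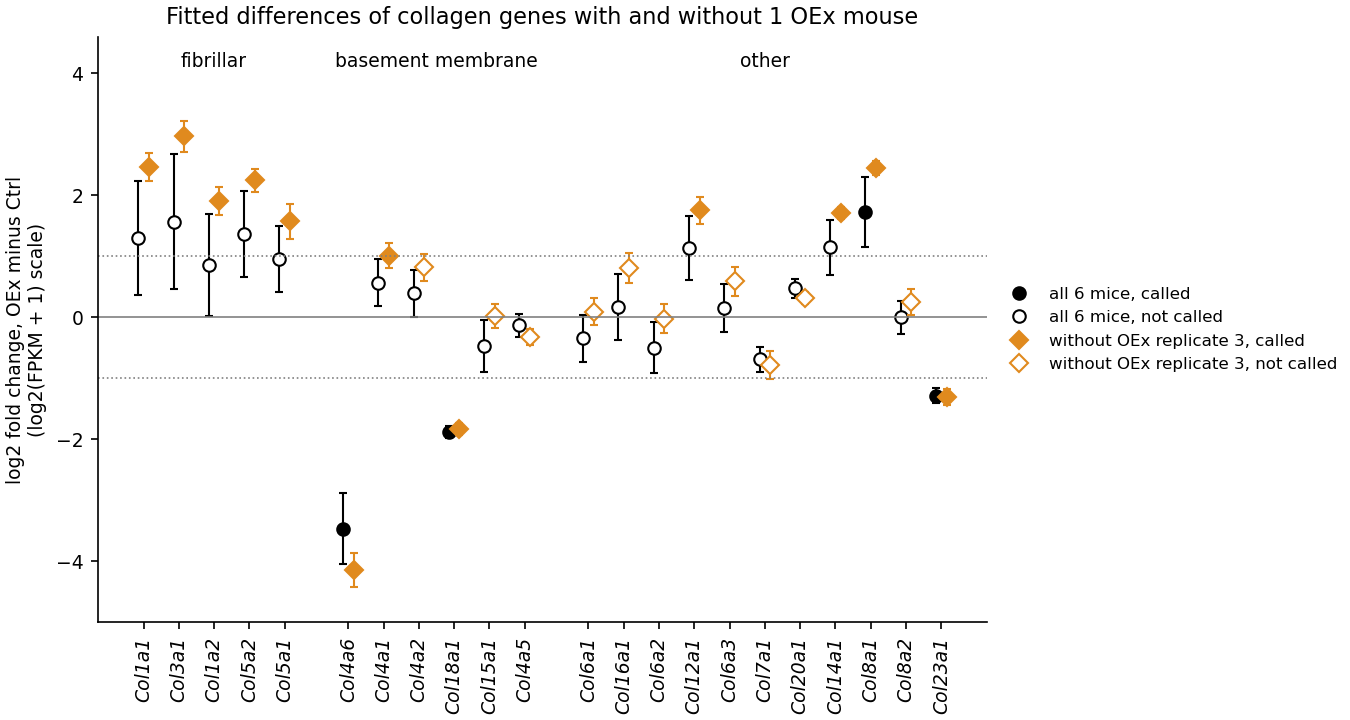
Fitted log2 fold change of each tested collagen gene, OEx minus Ctrl on the log2(FPKM + 1) scale, with bars of 1 SE; circles are fits with all 6 mice, diamonds fits without OEx replicate 3, filled symbols are genes called, and dotted lines mark a change of 1 in either direction. The circle of Col3a1 is at 1.57 with an SE of 1.11 and its diamond at 2.96 with an SE of 0.260, whereas Col18a1 and Col23a1 are nearly in the same place in both fits.

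The spread among OEx mice was a property of most collagens and not of most genes. The median SD of log2(FPKM + 1) was 0.849 in OEx and 0.365 in Ctrl mice over the 22 collagens, against 0.129 and 0.159 over all tested genes. It was widest for the 5 fibrillar genes, at 1.82 in OEx and 0.391 in Ctrl mice, and the OEx SD was the larger in 20 of 22 collagens and in 5328 of 12553 genes. OEx replicates 1 and 2 were both more than 2-fold above OEx replicate 3, on the same log scale, in 15 of 22 collagens and in 3.09% of all tested genes. OEx replicate 3 had the lowest value of the 6 mice in 13 of 22 collagens, or 59.1%, against 18.3% of all tested genes. Among Ctrl mice, replicate 3 was highest in 18 of 22 collagens, or 81.8%, against 38.6% of all tested genes.

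Markers of stromal and immune cells moved with this split. The summed FPKM of 8 fibroblast markers was 86.9, 90.0 and 17.2 in OEx and 72.9, 72.4 and 137 in Ctrl mice, and all 8 were lowest in OEx replicate 3 and highest among Ctrl mice in replicate 3. None of the 8 was called by limma, with 1 at an unadjusted p under 0.05. The sum of 6 immune markers was 32.3, 32.8 and 8.09 FPKM in OEx and 8.49, 8.18 and 15.8 FPKM in Ctrl mice. Smooth muscle markers, in contrast, were low in every OEx mouse, with sums of 509.7, 507 and 426 FPKM against 1292, 1268 and 2705 FPKM in Ctrl mice. Of these, 7 of 7 were called lower, beside 15.5% of all tested genes. Endothelial markers summed to 9.70, 10.3 and 7.88 FPKM in OEx and 24.6, 23.6 and 37.0 FPKM in Ctrl mice, with 2 of 6 called lower. All these sums are in the deposited scaling, which gives a lower FPKM in OEx mice for an equal share of reads. The part of these cell types in the collagen differences was not tested.

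Set beside the fibroblast markers, fibrillar collagen mRNA was high in all 3 OEx mice. The summed fibrillar FPKM was 214, 223 and 16.4 in OEx and 30.1, 30.6 and 53.3 in Ctrl mice, so that the groups overlapped. Its ratio to the summed fibroblast markers was 2.46, 2.48 and 0.957 in OEx and 0.413, 0.423 and 0.389 in Ctrl mice, and the groups did not overlap. This ratio was chosen after the values were seen and is given without a test. It depends on the markers summed. Fbn1, at 6.41, 6.73 and 0.685 FPKM in OEx and 0.758, 0.745 and 1.27 FPKM in Ctrl mice, split as the fibrillar genes did. It was the only 1 of the 8 with OEx replicates 1 and 2 more than 2-fold above OEx replicate 3 and all Ctrl mice. Against Fbn1 alone, the fibrillar sum was not higher in OEx mice. The corresponding ratio of basement membrane collagens was 0.557, 0.584 and 1.83 in OEx and 1.15, 1.20 and 0.563 in Ctrl mice and overlapped. That of the other collagens was 0.763, 0.792 and 1.35 in OEx and 0.552, 0.542 and 0.469 in Ctrl mice, again without overlap, so a higher ratio was not limited to the fibrillar class. As a share of all recovered reads, collagen mRNA took 0.370%, 0.389% and 0.0651% in OEx and 0.0848%, 0.0873% and 0.121% in Ctrl mice.

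**Figure D3:**
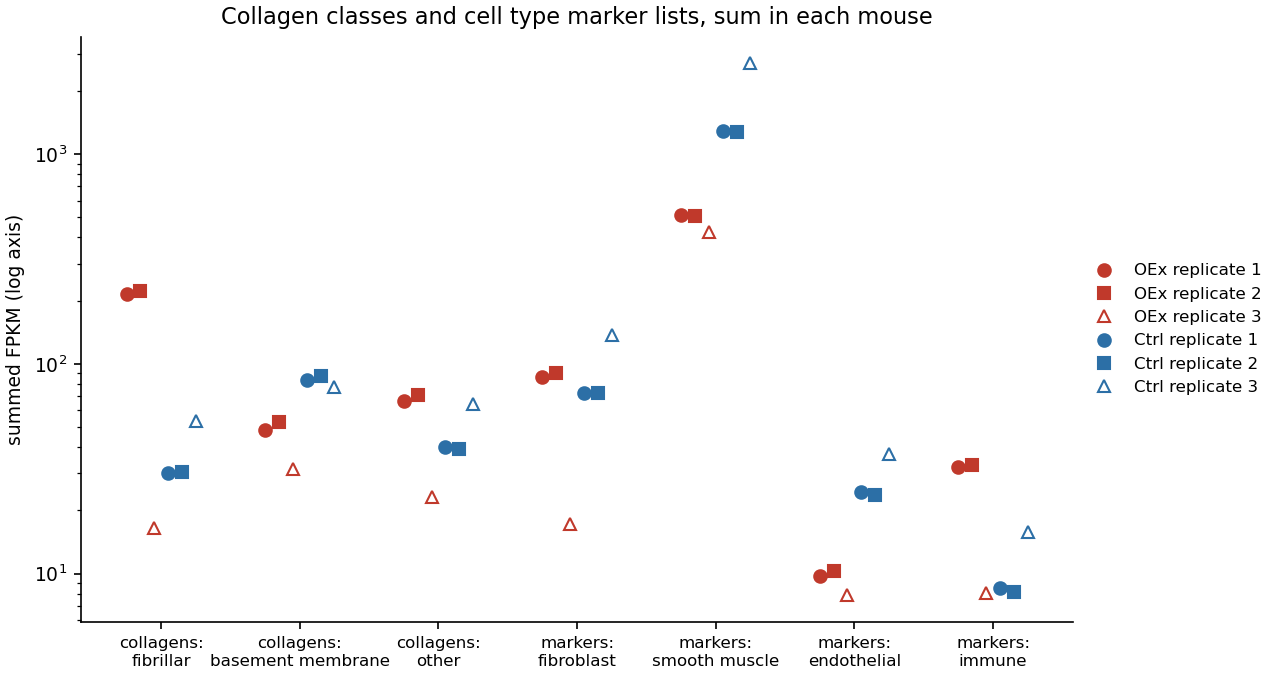
Summed FPKM per mouse, on a log axis, of the 3 collagen classes and of 4 marker lists on the horizontal axis; red symbols are OEx and blue symbols Ctrl mice, and open triangles are replicate 3 of either group. OEx replicate 3 lies at 16.4 FPKM of fibrillar collagen and 17.2 FPKM of fibroblast markers, far below the other OEx mice, while all OEx mice lie below all Ctrl mice for basement membrane collagens, smooth muscle and endothelial markers. As a percentage of the summed FPKM of each mouse, basement membrane collagens overlapped between groups. These shares were 0.0191%, 0.0209% and 0.0116% in OEx and 0.0181%, 0.0187% and 0.0147% in Ctrl mice.

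The basement membrane collagens had lower Col4a6 and Col18a1 in all OEx mice, whereas Col4a1, Col4a2 and Col4a5, the other tested type IV chains, did not pass. Of the 8 genes 6 were tested, 2 were called lower and none was called higher, beside 15.5% and 12.8% of all tested genes. At an unadjusted p under 0.05, 0 were higher in limma and in limma-voom. The median log2 fold change of the class was -0.30, and 0.47 when the libraries were scaled to their totals, a scaling that moved the median of all genes from -0.07 to 0.75. Relative to all genes the class median was -0.23 under the deposited scaling and -0.28 under library totals.

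Col4a6 (chrX:141165403-141474076), the alpha 6 chain of type IV collagen, was at 1.10, 1.32 and 8.15 FPKM in OEx and at 45.7, 47.6 and 25.7 FPKM in Ctrl mice. Every OEx mouse was below every Ctrl mouse, with replicate 3 of either group nearer to the other group. The means of 3.52 ± 4.01 FPKM (SD, n = 3) and 39.6 ± 12.1 FPKM (SD, n = 3) gave a log2 fold change of -3.47 (SE 0.582, limma FDR 0.0019), and between -4.15 and -3.09 when each mouse was left out. Col4a6 had the highest FPKM of all collagens in each Ctrl mouse, where it made up 68.3%, 69.6% and 46.3% of the summed type IV FPKM. In OEx mice its share was 2.76%, 3.09% and 29.7%. Without Col4a6, the summed FPKM of the basement membrane class overlapped between groups, at 47.4, 51.2 and 23.3 in OEx and 38.2, 39.4 and 51.5 in Ctrl mice. The basal cell markers Krt5, Krt14 and Trp63 were called lower as well, with a sum of 3.72, 3.88 and 5.32 FPKM in OEx and 100.4, 99.4 and 122 FPKM in Ctrl mice, and their part in the Col4a6 difference was not tested.

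Col4a5 (chrX:141475385-141689234), which encodes the alpha 5 chain that assembles with alpha 6, lies next to Col4a6 on the opposite strand, with 1343 bases between the RefSeq starts of the genes. It was at 3.37, 2.91 and 5.14 FPKM in OEx and at 4.40, 4.58 and 3.58 FPKM in Ctrl mice, with overlapping groups and a log2 fold change of -0.13 (SE 0.185, limma FDR 0.554). The 250 bases upstream of both starts are shown because these neighboring genes differed in response. Sequences are from RefSeq on GRCm38.p6, in 5′ to 3′ direction of each gene, at chrX:141474077-141474326 (minus strand) and chrX:141475169-141475418 (plus strand). Capitals mark the letters TGGGAA on either strand (TTCCCA on the other), the core of the known binding motif of RBPJ, the DNA-binding partner of N1ICD.
Col4a6: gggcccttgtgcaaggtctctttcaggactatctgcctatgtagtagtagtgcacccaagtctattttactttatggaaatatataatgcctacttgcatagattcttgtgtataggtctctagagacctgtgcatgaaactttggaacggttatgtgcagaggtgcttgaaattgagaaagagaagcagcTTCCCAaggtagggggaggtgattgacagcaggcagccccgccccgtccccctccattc
Col4a5: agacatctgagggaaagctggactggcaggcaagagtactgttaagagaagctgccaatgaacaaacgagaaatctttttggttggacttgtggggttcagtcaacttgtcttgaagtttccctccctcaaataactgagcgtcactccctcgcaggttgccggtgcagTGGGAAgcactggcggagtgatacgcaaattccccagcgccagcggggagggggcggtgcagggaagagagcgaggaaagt
The letters began 59 bases upstream of the Col4a6 start and 81 bases upstream of the Col4a5 start, so that both genes held them. They were found in 7094 of 32851 upstream windows of the same length in the mouse genome (21.6%) and in 11 of 37 windows of 34 collagen genes (29.7%), but in 4 of 20 windows of the tested collagens (20.0%). A match is a string of letters and not a binding site.

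Col18a1 (chr10:77052178-77166548), which encodes type XVIII collagen, the proteoglycan whose end fragment is endostatin, was at 2.74, 3.04 and 2.48 FPKM in OEx and at 12.1, 12.7 and 13.7 FPKM in Ctrl mice. The 3 OEx mice lay close together and far below the Ctrl mice. The means were 2.75 ± 0.281 FPKM (SD, n = 3) and 12.8 ± 0.808 FPKM (SD, n = 3), with a log2 fold change of -1.88 (SE 0.0963, limma FDR 2.9e-05). This was the smallest standard error among the tested collagens, and the change was between -1.94 and -1.83 when each mouse was left out. RefSeq lists 2 starts for Col18a1, whose upstream windows at chr10:77166531-77166780 and chr10:77113706-77113955 (minus strand, GRCm38.p6) are shown because no other collagen fell with so small an error.
Col18a1 first start: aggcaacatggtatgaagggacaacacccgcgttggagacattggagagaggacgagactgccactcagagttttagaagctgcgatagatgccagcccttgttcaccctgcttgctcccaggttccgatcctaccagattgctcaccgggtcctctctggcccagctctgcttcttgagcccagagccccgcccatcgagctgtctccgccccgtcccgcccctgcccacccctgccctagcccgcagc
Col18a1 second start: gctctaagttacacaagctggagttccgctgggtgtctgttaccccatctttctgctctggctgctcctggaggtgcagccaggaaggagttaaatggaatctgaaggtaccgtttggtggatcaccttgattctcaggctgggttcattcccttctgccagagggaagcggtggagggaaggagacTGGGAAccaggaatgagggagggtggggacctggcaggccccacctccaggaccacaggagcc
The same letters, in capitals, occurred 63 bases upstream of the second start and were not in the window of the first. The gene tables do not separate the transcripts of the 2 starts.

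The ubiquitous type IV chains Col4a1 (chr8:11198423-11312826) and Col4a2 (chr8:11312805-11449287) followed the fibrillar genes in their order of mice by FPKM. Col4a1 was at 19.5, 21.1 and 7.46 FPKM in OEx and at 8.54, 7.90 and 12.9 FPKM in Ctrl mice. Col4a2 was at 15.4, 17.0 and 6.06 FPKM in OEx and at 7.34, 7.46 and 12.1 FPKM in Ctrl mice. In FPKM, OEx replicate 3 was the lowest of the 6 mice for both genes. From a smaller read total, however, it had 1005 reads of Col4a1 against 797 and 763 in Ctrl replicates 1 and 2. For Col4a2 it had 724 reads against 608 and 639, so its rank depends on the scaling. The log2 fold changes of 0.57 (SE 0.387, limma FDR 0.232) for Col4a1 and 0.39 (SE 0.382, limma FDR 0.394) for Col4a2 did not pass. Their annotated starts are 21 bases apart and their exons overlap there. The log2 fold change of Col15a1, which lies in the zone between basement membrane and stroma, was -0.48 (SE 0.425, limma FDR 0.350).

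Among the other collagens, 1 of 11 tested genes was called higher and 1 lower, beside 12.8% and 15.5% of all tested genes. The rest were divided among the supramolecular types. Col23a1 (chr11:51289920-51583918), a collagen with a membrane-spanning segment, was at 0.411, 0.511 and 0.512 FPKM in OEx and at 2.81, 2.21 and 2.81 FPKM in Ctrl mice. No OEx value came near a Ctrl value, and the log2 fold change was -1.29 (SE 0.123, limma FDR 0.0002), which understates the change of a gene at so low a level. Col7a1, the anchoring fibril collagen that ties basement membrane to stroma, was also lower in FPKM in each OEx mouse than in each Ctrl mouse, with a log2 fold change of -0.69 (SE 0.204, limma FDR 0.0214) that is short of the fold required for a call. This difference depended on the scaling. It was -0.07 (limma FDR 0.777) with library totals, -0.49 (limma FDR 0.0773) with the upper quartile and -0.90 (FDR 0.0216) in limma-voom.

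Col8a1 (chr16:57624258-57754737), known from the matrix of vessel walls and the cornea, was at 5.41, 5.48 and 0.431 FPKM in OEx and at 0.0918, 0.187 and 0.260 FPKM in Ctrl mice. These values rest on 845, 981 and 61 reads in OEx and on 9, 19 and 31 reads in Ctrl mice. All OEx mice were above all Ctrl mice, with OEx replicate 3 the nearest to them. The log2 fold change was 1.73 (SE 0.577, limma FDR 0.0338). When any mouse other than OEx replicate 3 was left out the call was lost, with log2 fold changes of 1.36 to 1.78 and limma FDR values of 0.0712 to 0.102, and without OEx replicate 3 the log2 fold change was 2.45. The gene was also not called by limma-voom on recovered reads (FDR 0.154) or by limma without the filter on low values (FDR 0.0704). Its partner chain Col8a2 had a log2 fold change of 0.00 (SE 0.266, limma FDR 0.996).

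The fibril-associated collagens with interrupted helices, or FACIT collagens, coat fibrillar collagen and link it to other matrix. All 4 tested genes had log2 fold changes above 0, at 1.15 for Col14a1 (SE 0.454, limma FDR 0.0604), 1.13 for Col12a1 (SE 0.519, limma FDR 0.0926), 0.48 for Col20a1 (SE 0.153, limma FDR 0.0297) and 0.17 for Col16a1 (SE 0.538, limma FDR 0.798). Col14a1 and Col12a1 showed the split of the fibrillar genes, with OEx replicates 1 and 2 above OEx replicate 3 and all Ctrl mice. Col20a1 did not, since its highest value was in OEx replicate 3 and its groups did not overlap.

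The beaded filament chains of type VI collagen, which surround many stromal cells, gave no difference between the groups that passed the test. Col6a1 (chr10:76708792-76726168) was at 16.7, 17.6 and 6.29 FPKM in OEx and at 14.4, 13.0 and 21.9 FPKM in Ctrl mice. Col6a2 (chr10:76595762-76623630) was at 6.86, 7.21 and 1.98 FPKM in OEx and at 5.80, 6.04 and 10.3 FPKM in Ctrl mice. Col6a3 (chr1:90765923-90843971) was at 3.63, 4.19 and 0.991 FPKM in OEx and at 1.92, 1.68 and 3.42 FPKM in Ctrl mice. OEx replicate 3 had the lowest value of all 3 genes, and the log2 fold changes were -0.35, -0.50 and 0.15 (limma FDR 0.328 to 0.744). OEx replicates 1 and 2 were here within or near the Ctrl range, unlike their values for types I, III and V.

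The other 21 collagen genes were under the filter, with a mean of at most 0.711 FPKM, and were not tested. Col9a1 and Col19a1 had 0 reads in all 6 mice. Col11a1, a fibrillar chain best known from cartilage, had 100, 123 and 8 reads in OEx and 2, 0 and 1 reads in Ctrl mice. Col13a1, a further transmembrane collagen, had 0, 7 and 11 reads in OEx and 32, 48 and 63 reads in Ctrl mice. Among the 21 genes the groups did not overlap for 4 that were higher (Col11a1, Col11a2, Col9a2 and Col28a1) and 2 that were lower (Col4a4 and Col13a1). The shares of 33.6% and 38.9% of all tested genes are for genes above the filter. The shares among all genes under the filter were not computed, so these counts are not set against a like background. Col4a3 and Col4a4, the remaining type IV chains, had 27 to 52 and 59 to 131 reads per mouse.

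Ratios between chains within a mouse do not depend on the scaling between mice. Their level does depend on the exon lengths used, so only differences between mice are read from them. The type I chains are assembled into a helix with more alpha 1 than alpha 2 chains, which these mRNA ratios do not measure. Col1a2/Col1a1 was 0.455, 0.405 and 0.488 in OEx and 0.590, 0.632 and 0.620 in Ctrl mice. In reads, OEx replicate 1 had 8502 of Col1a2 and 9877 of Col1a1. Each OEx ratio was under each Ctrl ratio, although Col1a1 itself ran from 6.04 to 83.7 FPKM in them (difference of mean log2 ratios -0.46, exact two-sided permutation test, p = 0.1, the smallest that 3 against 3 mice allow). Col4a6/Col4a5 was 0.326, 0.454 and 1.59 in OEx and 10.4, 10.4 and 7.18 in Ctrl mice (difference -3.90, exact permutation p = 0.1). Col4a2/Col4a1 was 0.791, 0.808 and 0.812 in OEx and 0.860, 0.944 and 0.940 in Ctrl mice (difference -0.19, exact permutation p = 0.1). Col3a1/Col1a1 and Col6a2/Col6a1 overlapped between groups, with differences of 0.27 and -0.25 (exact permutation p = 0.4 and p = 0.3). Adjusted over the 5 ratios with the Benjamini-Hochberg method, the lowest of these exact permutation p-values was 0.167.

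**Figure D4:**
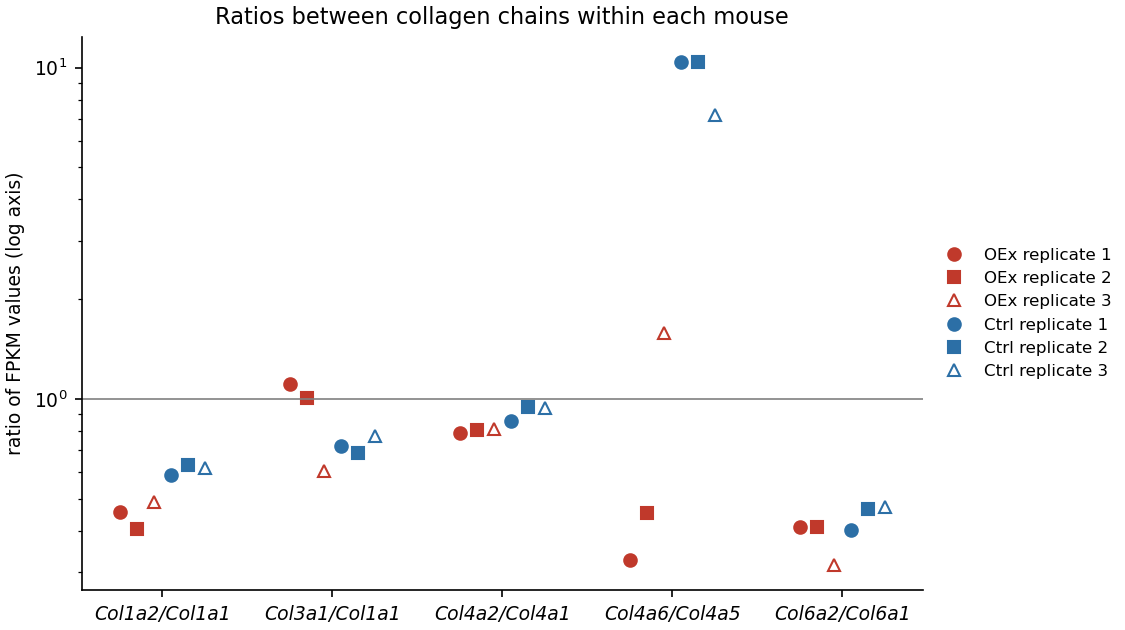
Ratio of the FPKM values of collagen chains within each mouse, on a log axis, for 5 pairs of chains on the horizontal axis; red symbols are OEx and blue symbols Ctrl mice, and the gray line marks a ratio of 1. The Col4a6/Col4a5 ratio is between 0.326 and 1.59 in OEx and between 7.18 and 10.4 in Ctrl mice, and the Col1a2/Col1a1 ratio is below 0.49 in all OEx and above 0.58 in all Ctrl mice.

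The genes that modify, export, crosslink, bind and break down collagen were divided. Of the tested genes, 3 of 8 listed under prolyl hydroxylation and 2 of 5 fibril-binding proteoglycans fell, whereas Plod2 and Lox rose, Lox with overlapping groups. Of 52 genes on this list 39 were tested, 2 were called higher and 8 lower, beside 12.8% and 15.5% of all tested genes, and the median log2 change was -0.17. These counts depended on the scaling. Library totals moved the median of all genes from -0.07 to 0.75, and fewer listed genes were then called lower and more higher. Among the genes listed under prolyl hydroxylation, a step in the endoplasmic reticulum, 3 of 8 fell, namely P3h3 (log2 fold change -1.28), Ppib (-1.24) and P3h4 (-1.15), and no prolyl 4-hydroxylase subunit was called. These are calls of listed mRNAs, and hydroxylation itself was not measured. By FDR alone 6 of the 8 were lower, beside 36.5% of all tested genes. P4ha1 and P4hb, subunits of the main prolyl 4-hydroxylase, were at -0.86 and -0.81 and passed by FDR alone, as did P4ha2 in the other direction at 0.46, and P4ha3 was under the filter. The lysyl hydroxylases were divided, since Plod1 fell (-1.18) and Plod2, whose product favors crosslinks typical of stiff matrix, rose (1.25, SE 0.211, limma FDR 0.00198). Plod2 was at 3.62, 3.45 and 2.63 FPKM in OEx and at 0.786, 0.358 and 1.28 FPKM in Ctrl mice, and was called higher with each mouse left out in turn.

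Lox, the lysyl oxidase that starts collagen crosslinking, was at 19.3, 17.6 and 1.31 FPKM in OEx and at 0.465, 0.626 and 1.40 FPKM in Ctrl mice. OEx replicates 1 and 2 were above all Ctrl mice, as for the fibrillar collagens, and OEx replicate 3 was below Ctrl replicate 3. The log2 fold change of 2.42 (SE 0.821, limma FDR 0.0360) was called with all mice and without OEx replicate 3, and not when any other mouse was left out. Loxl2 (1.08), Loxl1 (0.93) and Loxl3 (0.37) were not called, and Loxl4 was under the filter. The collagen chaperone Serpinh1 was at 41.0, 39.1 and 7.69 FPKM in OEx and at 27.0, 27.2 and 53.0 FPKM in Ctrl mice and did not pass (-0.51, SE 0.637, limma FDR 0.499).

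Of the 5 tested proteoglycans that bind fibrils, Fmod and Prelp fell, whereas Lum (1.43), Bgn (0.08) and Dcn (-0.28) were not called and overlapped between groups. Fmod, or fibromodulin, which takes part in fibril assembly, was at 2.23, 2.08 and 2.93 FPKM in OEx and at 27.7, 26.4 and 35.0 FPKM in Ctrl mice (log2 fold change -3.17, SE 0.146, limma FDR 2.6e-05). Prelp, a proteoglycan of the zone between basement membrane and stroma, was at 6.30, 7.04 and 5.01 FPKM in OEx and at 19.7, 22.0 and 30.1 FPKM in Ctrl mice (-1.80, SE 0.182, limma FDR 0.000218). In both genes all OEx mice lay well below the Ctrl mice, replicate 3 included. The remaining called genes, Creb3l1 (-1.26), a transcription factor for collagen secretion, and the collagenase Mmp8 (-1.14), were also lower. Of the 5 tested collagen receptors none was called by limma, with 2 at an FDR under 0.05, both higher, beside 30.9% of all tested genes. Without OEx replicate 3, 6 genes of the list were called higher, with Bmp1, Loxl1, Loxl2 and Lum added, and 6 lower, beside 13.3% and 15.5% of all tested genes. Plod1 (-0.91) and Creb3l1 (-0.95) were then short of the fold required for a call.

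**Figure D5:**
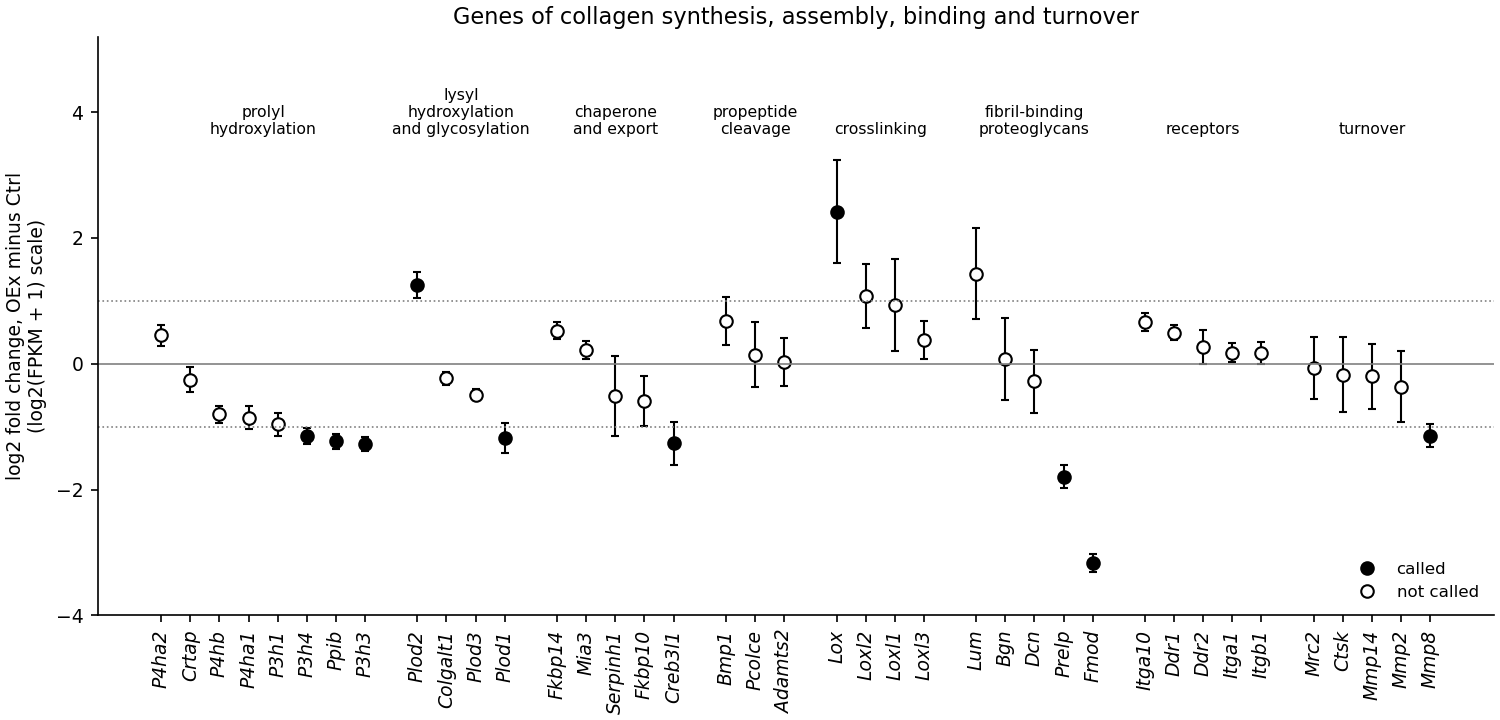
Fitted log2 fold change, OEx minus Ctrl on the log2(FPKM + 1) scale with bars of 1 SE, of the 39 tested genes of collagen synthesis, assembly, binding and turnover, grouped by role on the horizontal axis; filled symbols are genes called and dotted lines mark a change of 1 in either direction. Lox is highest at 2.42 with an SE of 0.821 and Fmod lowest at -3.17 with an SE of 0.146.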

How the data were processed

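The data were 6 RNA-seq libraries of whole AP, 1 for each of 3 OEx and 3 Ctrl mice, and groups were taken from the sample labels. The authors deposited 1 table of FPKM per mouse. The paper names an in-house pipeline, and the submitters' processing notes list featureCounts 1.5.0-p3, StringTie 1.3.3b, CASAVA and HISAT2 2.0.5 without roles. The genome build is not given in the sources used here. Of 55076 rows, 544 had no gene name, held at most 1.21% of the summed FPKM and were left out.

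Exon lengths of GENCODE vM21 (GRCm38) turned the FPKM of 53710 genes into reads. Per mouse, 96.9% to 97.5% of values were whole within 0.05 reads, and 42 of the 43 collagens were whole in every mouse (all except Col11a2). At these depths 3 reads correspond to 0.161 to 0.203 CPM, which covers counting error only.

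The groups were compared by limma 3.58.1 (R 4.3.3; lmFit, eBayes with trend) on log2(FPKM + 1) for the 12553 rows that averaged 1 FPKM or more. Calls used a Benjamini-Hochberg FDR under 0.05 and a log2 fold change beyond 1. Fold changes on this scale understate those of low genes. Chain ratios were compared by exact permutation over the 20 assignments of mice. The fit was tested on simulated data. Python 3.11.15, pandas 2.3.3, numpy 2.4.6, scipy 1.17.1 and matplotlib 3.10.9 were used.

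The members, gene lists and tests were chosen with earlier results of these data known. Per-mouse values are given for called collagens and for the main chains of types I, III, V, IV and VI, and other tested members are given by fold change. From the processing list, the called genes, lysyl oxidases, Serpinh1 and prolyl 4-hydroxylase genes are named. Col4a5, Col7a1, Col20a1, Col11a1, Col13a1 and other genes outside this rule were named after their values were seen. Upstream sequences came from RefSeq (GRCm38.p6), where 34 of the 43 collagens were matched. Alternatives were other pseudocounts, filters, scalings, variance models and thresholds, limma-voom, a replicate block, and each mouse left out.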

Additional observations from a re-analysis of the deposited data

How the results depend on the processing

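Col4a6 and Col18a1 were called lower under every alternative run, and Col23a1 under all except the filter at a mean of 5 FPKM, which it did not pass. No collagen called lower or higher under the settings first described changed direction. Col16a1, called only without replicate 3 of either group (log2 fold change 1.04), was at -0.11 without OEx replicate 1 and -0.19 without OEx replicate 2. The number of collagens called higher was 0 without a filter, at a mean of at least 5 FPKM and in limma-voom, 7 with library totals, 5 with totals that leave out the 20 most abundant genes, 2 with the upper quartile and 2 by FDR alone. It ran from 0 to 9 when 1 mouse was left out, with 9 without OEx replicate 3 and 0 without each of the others, and was 11 without replicate 3 of either group. At an unadjusted p under 0.05, 7 collagens were higher without a filter, 0 at a mean of at least 5 FPKM and 1 in limma-voom. Over all genes, the higher and lower counts of 1604 and 1941 became 4987 and 545 with library totals, 4115 and 792 without the 20 most abundant genes, and 3875 and 4584 by FDR alone. The higher count was 670 at a mean of at least 5 FPKM and 2483 in limma-voom, and the lower count was 1233 with the upper quartile. The median log2 fold change of basement membrane collagens was 0.47 with library totals and 0.25 without the 20 most abundant genes, and that of other collagens 0.94 with library totals, where the median of all genes was 0.75 and 0.54. The processing genes called higher were 1 without a filter and at a mean of at least 5 FPKM, 12 with library totals, 7 without the 20 most abundant genes, 6 by FDR alone, 8 without replicate 3 of either group, and 1 to 6 when 1 mouse was left out. Those called lower were 5 at a mean of at least 5 FPKM, 3 with library totals, 3 without the 20 most abundant genes, 4 with the upper quartile, and 6 to 9 when 1 mouse was left out. The cause of these shifts was not tested, except that the filters change the genes tested and each left-out mouse the samples fitted.

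The labels do not say that mice with the same number were littermates or handled together, and the deviations of same-numbered mice correlated at -0.201, -0.192 and -0.314. Replicate 3 stood apart in both groups, so these correlations cannot decide whether same-numbered mice were paired. With the replicate block 0 collagens were called higher and 3 lower, with 3 higher at an unadjusted p under 0.05, and 1 processing gene was called higher. Over all genes the block gave 1565 higher and 1906 lower calls. No sample correlated best with the sample of its own number. The depth, with 9 to 31 reads of Col8a1 in Ctrl mice, limits what can be said of genes under the filter, and with 3 mice a group exact tests cannot go below 0.1.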
